A study of Mus musculus with 12 samples.

Results

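The genes described here are 10 transcriptional outputs and feedback regulators of the mitogen-activated protein kinase (MAPK) pathway, measured in mouse lung. They are Dusp4, Dusp6, Spry2, Spry4, Spred1, Spred2, Etv4, Etv5, Fosl1 and Epha2. They were found on each array as the non-control probes whose RefSeq transcript belongs to one of these genes, which gave 13 probes for 10 genes, among 41137 probes and 17009 named genes in the series. Lung RNA of FVB/N mice (strain FVB/NJ on the sample sheets) was labelled with Cy3 and hybridised to single-colour Agilent arrays, with 3 arrays in each of 4 groups. All mice were described as females aged 7 weeks at the start. LPS/NNK mice received both agents. LPS mice received lipopolysaccharide, the endotoxin of Gram-negative bacteria, at 5 ug per mouse into the nose every week for 16 weeks. NNK mice received 4-(methylnitrosamino)-1-(3-pyridyl)-1-butanone, a tobacco carcinogen, injected into the peritoneum at 3 mg per mouse over the opening 4 weeks. PBS mice received weekly phosphate-buffered saline for 16 weeks. Lungs were taken 1 week after the last treatment. The dosing interval of NNK is given as biweekly in one label and semi-weekly in another, and whether NNK mice also received saline into the nose is not stated.

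Growth factor receptors switch on RAS, which passes the signal through the kinases RAF and MEK to ERK. Active ERK raises transcription of genes that answer quickly, and several of their products then shut the pathway down. Because of this feedback the genes are widely read as a record of recent pathway output, and in lung alveolar type 2 cells the ETS factor Etv5 is also linked to cell identity.

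The PBS arrays were set apart by properties of the whole array. The 75th percentile signal, to which every value below is scaled, was 202 to 556 on the 9 treated arrays and 746 to 1060 on the 3 PBS arrays. Between 55.6% and 67.5% of spots were well above background on treated arrays, against 70.2% to 73.1% on PBS arrays. Log2 values correlated at 0.936 to 0.99 among treated arrays and at 0.878 to 0.93 between treated and PBS arrays. The median log2 signal of the spike-in control probes went the other way, at 10.47 to 11.39 on treated and 9.05 to 10.09 on PBS arrays. PBS 2 was the only array scanned on a different day. PBS 1 and PBS 2 also went against the female label: 4 of 4 Y-linked genes were well above background and Xist was not, whereas the other 10 arrays showed the reverse. Calls against PBS are therefore given with and without these arrays. Of 21857 genes and unnamed transcripts tested, 51.9% to 56.1% differed between any treated group and PBS, so a call against PBS was common for any gene.

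RefSeq promoter sequences (build GRCm38.p6) ran from 250 bases before to 50 bases after each gene start. They were read for 6 of the 10 genes, at 7 starts. No promoter of Dusp4, Spry4, Etv4 or Fosl1 was searched. The 7 promoters were searched on both strands for the AP-1 motif TGANTCA and the cyclic AMP response element TGACGTCA. The ETS core CCGGAA and the serum response factor's CArG box were searched for in the same way. The sequences shown are those of Epha2 and Etv5, on which the results for combined exposure turn, and of Spry2 and Spred2, 2 inhibitors of the pathway. Capitals mark a motif match, and sequences without capitals held none of these letters in this window. They lie at chr4:141300971-141301270 on the plus strand for Epha2, chr14:105896770-105897069 on the minus strand for Spry2 and chr11:19924192-19924491 on the plus strand for Spred2. The Etv5 starts lie at chr16:22439521-22439820 and chr16:22438319-22438618 on the minus strand.
Epha2: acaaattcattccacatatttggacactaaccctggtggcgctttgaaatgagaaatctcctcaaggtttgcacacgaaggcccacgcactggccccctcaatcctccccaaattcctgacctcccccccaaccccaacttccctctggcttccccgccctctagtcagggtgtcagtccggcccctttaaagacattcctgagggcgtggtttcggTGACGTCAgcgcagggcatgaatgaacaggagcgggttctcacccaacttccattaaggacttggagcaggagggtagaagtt
Spry2: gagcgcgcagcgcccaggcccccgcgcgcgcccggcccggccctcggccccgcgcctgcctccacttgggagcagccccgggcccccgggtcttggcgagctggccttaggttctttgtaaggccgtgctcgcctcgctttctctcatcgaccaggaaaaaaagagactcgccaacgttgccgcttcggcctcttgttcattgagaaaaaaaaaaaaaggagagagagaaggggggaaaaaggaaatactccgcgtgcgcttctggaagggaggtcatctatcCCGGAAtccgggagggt
Spred2: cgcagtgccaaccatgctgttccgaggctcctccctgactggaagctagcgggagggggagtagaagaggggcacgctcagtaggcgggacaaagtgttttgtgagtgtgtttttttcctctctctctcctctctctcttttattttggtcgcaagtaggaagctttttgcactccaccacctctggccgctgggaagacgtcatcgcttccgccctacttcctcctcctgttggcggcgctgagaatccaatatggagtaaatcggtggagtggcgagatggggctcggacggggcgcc
Etv5 start 1: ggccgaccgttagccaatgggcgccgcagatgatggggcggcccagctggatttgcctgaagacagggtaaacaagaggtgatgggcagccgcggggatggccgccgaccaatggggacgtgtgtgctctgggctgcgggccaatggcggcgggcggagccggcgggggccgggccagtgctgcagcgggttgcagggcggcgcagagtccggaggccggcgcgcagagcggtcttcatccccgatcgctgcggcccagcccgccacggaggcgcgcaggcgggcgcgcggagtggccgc
Etv5 start 2: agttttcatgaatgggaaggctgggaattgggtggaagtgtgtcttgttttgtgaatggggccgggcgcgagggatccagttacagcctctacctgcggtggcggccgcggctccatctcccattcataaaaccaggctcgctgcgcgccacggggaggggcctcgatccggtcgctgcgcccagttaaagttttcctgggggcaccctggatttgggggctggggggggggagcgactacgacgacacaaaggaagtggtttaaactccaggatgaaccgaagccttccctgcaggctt
Epha2 held a palindromic TGACGTCA beginning at position -33 from the gene start, a match found in 1.79% of 32851 mouse promoters of this length. Spry2 held CCGGAA from position 34 of the transcript, a match found in 14.9% of them. None of the 7 promoters held the AP-1 motif, present in 7.81% of all promoters, or the CArG box, present in 1.63%. These matches describe letters only, and factor binding was not measured.

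**Figure D1:**
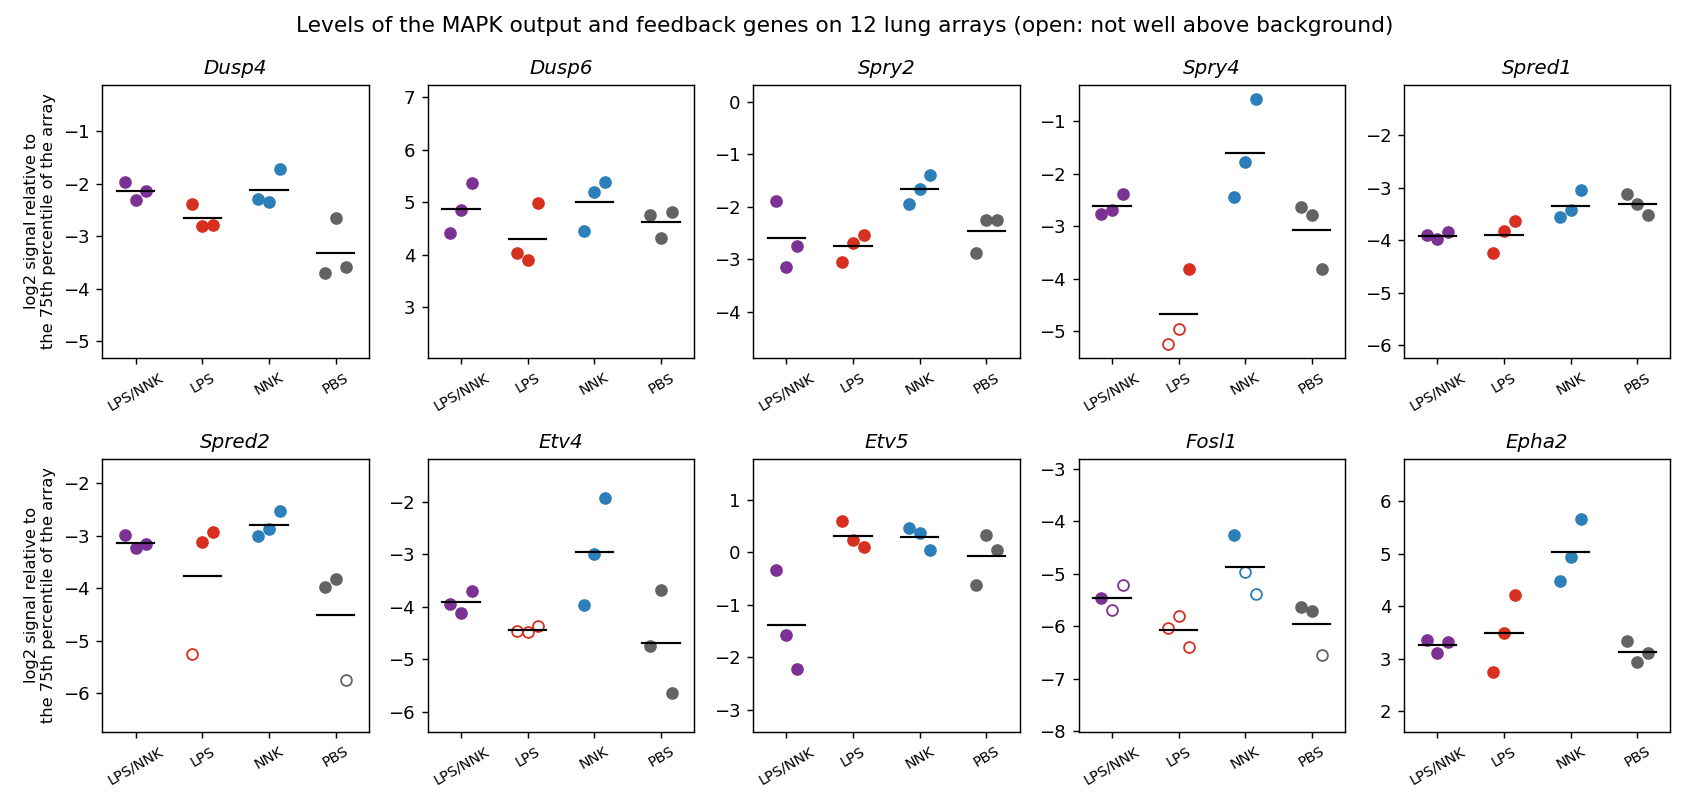
Each point is 1 lung array and each bar the mean of 3; the vertical axes give log2 signal relative to the array's 75th percentile, and every panel spans the same number of log2 units. Epha2 was highest on the NNK arrays, at 4.48 to 5.67, and Etv5 was low on LPS/NNK arrays 3 and 6, at -1.58 and -2.23.

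Dusp4 and Dusp6 encode dual-specificity phosphatases that remove the activating phosphates from ERK, Dusp4 in the nucleus and Dusp6 in the cytoplasm. Dusp4 had log2 levels of -1.97, -2.31 and -2.15 on the LPS/NNK arrays, -2.38, -2.80 and -2.79 on the LPS arrays, and -2.29, -2.35 and -1.73 on the NNK arrays, against -3.71, -2.66 and -3.58 on the PBS arrays. The LPS/NNK and NNK arrays all lay above all PBS arrays, while 2 of 3 LPS arrays lay below PBS 2. Dusp4 rose by 1.17 ± 0.30 (log2 change ± SE, 3 arrays a group, here and below) in LPS/NNK against PBS, which is 2.25-fold (limma adjusted p = 0.00479). The rise in NNK against PBS was 1.19 ± 0.30, or 2.28-fold (adjusted p = 0.00541). Both calls held under all 25 alternative settings run for each of them, and without PBS 1 and PBS 2 the changes were 1.44 (adjusted p = 0.016) and 1.45 (adjusted p = 0.0254). LPS against PBS gave 0.66 ± 0.30 (adjusted p = 0.0746), and 0.92 without PBS 1 and PBS 2 (adjusted p = 0.0884). It passed with quantile, cyclic loess and median scaling, at 1.05 to 1.16, and without PBS 2, at 0.99 (adjusted p = 0.0136). No comparison among treated groups passed: LPS/NNK gave -0.02 against NNK and 0.51 against LPS, and LPS gave -0.53 against NNK.

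Dusp6 did not pass the test in any of the 6 comparisons between groups in the reported fit. Its log2 levels were 4.42, 4.85 and 5.36 on the LPS/NNK arrays, 4.03, 3.89 and 4.99 on the LPS arrays, 4.45, 5.19 and 5.38 on the NNK arrays, and 4.75, 4.31 and 4.81 on the PBS arrays. Every group overlapped every other. In NNK against PBS its change was 0.38, with a 95% confidence interval of -0.38 to 1.14, which spans more than 1 log2 unit. In LPS against PBS the change was -0.32, and it passed the test only under quantile scaling, at -1.0 (adjusted p = 0.0158), and cyclic loess, at -1.10 (adjusted p = 0.00711). LPS/NNK gave 0.25 against PBS, -0.13 against NNK and 0.57 against LPS, and LPS gave -0.70 against NNK. With array weights it passed in NNK against PBS (0.57, adjusted p = 0.0279), LPS/NNK against LPS (0.91, adjusted p = 0.0218) and LPS against NNK (-1.13, adjusted p = 0.0031). That setting called 74.6%, 41.3% and 31.9% of all items in these comparisons.

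Sprouty proteins, here Spry2 and Spry4, and the Sprouty-related Spred1 and Spred2 dampen signalling between receptor and RAF, and SPRED1 is known to bring neurofibromin to RAS at the membrane. Spry4 moved most widely of the 4. Its log2 levels were -2.76, -2.69 and -2.39 on the LPS/NNK arrays, -5.24, -4.96 and -3.81 on the LPS arrays, -2.45, -1.77 and -0.57 on the NNK arrays, and -2.63, -2.78 and -3.82 on the PBS arrays. The LPS arrays were lowest, with 2 of 3 not well above background, and LPS 6 overlapped PBS 3. NNK 5 was the highest array by more than 1 log2 unit. Spry4 was 8.40-fold lower in LPS than in NNK (log2 -3.07 ± 0.48, adjusted p = 0.00207), with 1 of 3 LPS arrays well above background, and the call held under all 23 alternatives run for it. It was 4.15-fold higher in LPS/NNK than in LPS (2.05 ± 0.48, adjusted p = 0.0347; with normexp 0.93, adjusted p = 0.579). Against PBS it rose by 1.48 ± 0.48 in NNK (adjusted p = 0.0201) and fell by 1.59 ± 0.48 in LPS (adjusted p = 0.0124). LPS/NNK gave 0.46 against PBS (adjusted p = 0.429) and -1.02 against NNK (adjusted p = 0.155). A second Spry4 probe was not well above background on any array and was not tested.

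Several Spry4 calls were lost when a single array was left out. The rise in NNK against PBS was 0.97 without NNK 5 (adjusted p = 0.0946) and 1.11 without PBS 3 (adjusted p = 0.0883), and 2.22 without PBS 1 and PBS 2 (adjusted p = 0.039). The fall in LPS against PBS was -1.37 without PBS 1 (adjusted p = 0.0515), -1.31 without LPS 1 (adjusted p = 0.0538) and -0.85 without PBS 1 and PBS 2 (adjusted p = 0.348). It was -0.15 with normexp (adjusted p = 0.769), -1.13 with quantile scaling (adjusted p = 0.0543) and -1.03 with cyclic loess (adjusted p = 0.0795). The difference of LPS/NNK from LPS was 1.77 to 2.09 without LPS 1, LPS 5, NNK 3, LPS/NNK 3 or LPS/NNK 6, with adjusted p = 0.053 to 0.125. NNK 3 belongs to neither group, and without it the difference stayed at 2.05.

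Spry2 passed no test in the reported fit. It had log2 levels of -1.89, -3.15 and -2.74 on the LPS/NNK arrays, -3.04, -2.68 and -2.54 on the LPS arrays, -1.94, -1.66 and -1.40 on the NNK arrays, and -2.88, -2.25 and -2.24 on the PBS arrays. The NNK arrays lay above all LPS and PBS arrays, and LPS/NNK 2 alone reached into their range. The change in NNK against PBS was 0.79 ± 0.32 (adjusted p = 0.054), and it passed under 9 alternatives, at 0.79 to 1.12. LPS/NNK against NNK gave -0.92 ± 0.32 (adjusted p = 0.0633), and -1.28 without LPS/NNK 2 (adjusted p = 0.00723). This comparison also passed with slide as a random block (-0.89, adjusted p = 0.0481) and with array weights (-1.34, adjusted p = 2.27e-05). With probes required on all 12 arrays it passed at -0.92 (adjusted p = 0.0456). LPS against NNK gave -1.09 ± 0.32 (adjusted p = 0.065), and passed without LPS/NNK 2 (adjusted p = 0.0226). Against PBS, LPS/NNK gave -0.13 and LPS -0.29, and LPS/NNK gave 0.16 against LPS.

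Spred1 levels were close within groups. The tested probe read -3.90, -3.98 and -3.85 on the LPS/NNK arrays, -4.24, -3.82 and -3.63 on the LPS arrays, -3.56, -3.43 and -3.04 on the NNK arrays, and -3.11, -3.30 and -3.51 on the PBS arrays. LPS/NNK and LPS arrays all lay below the NNK and PBS arrays. Spred1 fell by 0.60 ± 0.24 in LPS/NNK against PBS (adjusted p = 0.0457) and by 0.59 ± 0.24 in LPS against PBS (adjusted p = 0.0497). Both changes turned positive with normexp background correction, at 0.65 and 0.29. The calls were kept under 9 of 25 and 8 of 24 alternatives, and without PBS 1 and PBS 2 the changes were -0.40 (adjusted p = 0.426) and -0.39 (adjusted p = 0.441). The second Spred1 probe was well above background on 0 of 3 LPS/NNK and 0 of 3 LPS arrays and on every NNK and PBS array, so its changes are not given. In NNK against PBS the tested probe gave -0.04 ± 0.24 (adjusted p = 0.907). LPS/NNK gave -0.57 against NNK (adjusted p = 0.116) and -0.01 against LPS, and LPS gave -0.55 against NNK (adjusted p = 0.207).

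Spred2 rose 3.28-fold in NNK against PBS (log2 1.72 ± 0.57, adjusted p = 0.0229). Its log2 levels were -2.99, -3.24 and -3.16 on the LPS/NNK arrays, -5.26, -3.11 and -2.92 on the LPS arrays, -3.01, -2.87 and -2.52 on the NNK arrays, and -3.98, -3.82 and -5.74 on the PBS arrays. LPS 1 and PBS 3 lay far below the rest of their groups and were not well above background. All 3 arrays of a group were well above background only in LPS/NNK and NNK, where the mean of Spred2 was highest. It passed the filter on dim probes through these groups alone. The rise was 1.10 without PBS 3 (adjusted p = 0.109), 1.57 without NNK 5 (adjusted p = 0.0655) and 2.94 without PBS 1 and PBS 2 (adjusted p = 0.0203). LPS/NNK against PBS gave 1.38 ± 0.57 (adjusted p = 0.0533), with no overlap between the groups, and passed under several alternatives at 1.13 to 2.61. Among these were slide as a random block (1.33, adjusted p = 0.0465), slide as a fixed effect (1.42, adjusted p = 0.0278) and the fit without PBS 1 and PBS 2 (2.61, adjusted p = 0.018). LPS against PBS gave 0.75 (adjusted p = 0.277), but 1.5 without LPS 1 (adjusted p = 0.0173) and 1.36 with cyclic loess (adjusted p = 0.0492). LPS/NNK gave -0.33 against NNK and 0.63 against LPS, and LPS gave -0.97 against NNK.

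Etv4 and Etv5 are PEA3-family ETS transcription factors induced by fibroblast growth factor and ERK signalling, and Fosl1 encodes FRA1, an AP-1 subunit stabilised by ERK. Etv4 had log2 levels of -3.94, -4.12 and -3.70 on the LPS/NNK arrays, -4.46, -4.48 and -4.37 on the LPS arrays, -3.96, -3.0 and -1.92 on the NNK arrays, and -4.74, -3.68 and -5.64 on the PBS arrays. NNK 5 was highest, NNK 2 overlapped PBS 2, and no LPS array was well above background. Etv4 rose 3.32-fold in NNK against PBS (log2 1.73 ± 0.49, adjusted p = 0.0104), at 1.25 without PBS 3 (adjusted p = 0.0502) and 2.68 without PBS 1 and PBS 2 (adjusted p = 0.0157). LPS/NNK against PBS gave 0.77 ± 0.49 (adjusted p = 0.198). It passed with normexp (1.16, adjusted p = 0.0463), with cyclic loess (1.22, adjusted p = 0.0458), without PBS 2 (1.27, adjusted p = 0.0427) and without PBS 1 and PBS 2 (1.72, adjusted p = 0.045). LPS/NNK against NNK gave -0.96 (adjusted p = 0.189). Because LPS arrays give only a bound, the bound on the fold between group means was 2.63 for NNK over LPS. The fitted change of LPS against NNK was -1.47 (adjusted p = 0.0967). For LPS/NNK over LPS the bound was 1.35 (fitted change 0.51, adjusted p = 0.523). In the reported fit no test passed for either comparison, so these bounds are point values and do not show a difference. For these bounds each LPS array was set at the higher of the probe's own signal and the lowest signal among probes well above background.

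Etv5 was low where both agents had been given. The tested probe had log2 levels of -0.35, -1.58 and -2.23 on the LPS/NNK arrays, 0.59, 0.23 and 0.10 on the LPS arrays, 0.45, 0.37 and 0.04 on the NNK arrays, and -0.62, 0.33 and 0.04 on the PBS arrays. All LPS/NNK arrays lay below all LPS and NNK arrays, LPS/NNK 2 lay near the others, and PBS 1 overlapped LPS/NNK. Etv5 was 3.19-fold lower in LPS/NNK than in NNK (log2 -1.67 ± 0.40, adjusted p = 0.0141). It was 3.23-fold lower in LPS/NNK than in LPS (-1.69 ± 0.40, adjusted p = 0.0365) and 2.46-fold lower than in PBS (-1.30 ± 0.40, adjusted p = 0.0143). NNK alone gave 0.37 ± 0.40 (adjusted p = 0.45) and LPS alone 0.39 ± 0.40 (adjusted p = 0.419) against PBS.

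**Figure D2:**
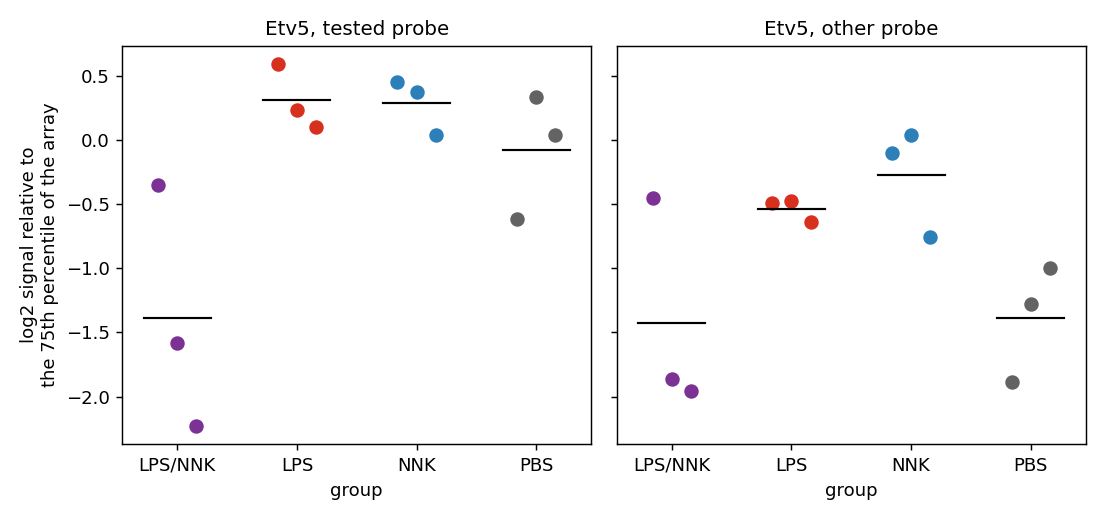
Each point is 1 lung array and each bar the mean of 3 for the 2 Etv5 probes; the vertical axis gives log2 signal relative to the array's 75th percentile. On both probes LPS/NNK arrays 3 and 6 were lowest or near lowest, but the PBS arrays read -0.62 to 0.33 on the tested probe and -1.89 to -1.0 on the other.

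The second Etv5 probe gave another picture against PBS. It had log2 levels of -0.45, -1.86 and -1.96 on the LPS/NNK arrays, -0.49, -0.48 and -0.64 on the LPS arrays, -0.10, 0.04 and -0.76 on the NNK arrays, and -1.89, -1.28 and -1.0 on the PBS arrays. On it the change of Etv5 in LPS/NNK against PBS was -0.03 ± 0.38 (adjusted p = 0.947), and Etv5 rose in NNK against PBS (1.12 ± 0.38, adjusted p = 0.0268). LPS/NNK gave -1.15 against NNK (adjusted p = 0.0533) and -0.89 against LPS (adjusted p = 0.156). The interaction, the change in LPS/NNK against LPS minus that in NNK against PBS, was -2.00 ± 0.54 on this probe (adjusted p = 0.0117) and -2.06 ± 0.57 on the tested one (adjusted p = 0.0127 with every probe tested separately).

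Etv5 calls were also lost when a single array was left out. LPS/NNK against NNK came to -1.59 when NNK 2 was left out, -1.63 when NNK 3 was, -1.57 when LPS/NNK 3 was and -1.25 when LPS/NNK 6 was, with adjusted p = 0.0528 to 0.057. LPS/NNK against PBS was -0.88 without LPS/NNK 6 (adjusted p = 0.0694), -1.09 without PBS 2 (adjusted p = 0.0623) and -1.43 without PBS 1 and PBS 2 (adjusted p = 0.0778). It was -0.67 with the mean of both probes (adjusted p = 0.154). LPS/NNK against LPS was -1.79 to -1.27 without LPS 1, LPS 5, LPS 6, NNK 2, NNK 3, LPS/NNK 3 or LPS/NNK 6, with adjusted p = 0.0505 to 0.149, and -1.29 with the mean of both probes (adjusted p = 0.0692). NNK 2 and NNK 3 belong to neither group, and without either of them the change stayed at -1.69.

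Fosl1 did not pass the filter on dim probes and was not tested with the other 9 genes. Its probe was well above background on 4 of 12 arrays, 1 of LPS/NNK, 0 of LPS, 1 of NNK and 2 of PBS. Its log2 levels were -5.47, -5.69 and -5.21 on the LPS/NNK arrays, -6.03, -5.81 and -6.39 on the LPS arrays, -4.26, -4.97 and -5.38 on the NNK arrays, and -5.63, -5.71 and -6.56 on the PBS arrays. With no filter its change in NNK against PBS was 1.10 ± 0.34 (adjusted p = 0.0183), and no other comparison passed. LPS/NNK then gave 0.51 against PBS and -0.58 against NNK. Before scaling, Fosl1 signal was no higher as a range on NNK arrays, at 6.96 to 23.4, than on PBS arrays, at 7.91 to 21.5, apart from NNK 2. The second Spry4 probe, well above background on no array, also had a higher scaled mean in NNK (-6.66) than in PBS (-8.13). With no filter the median over all items in NNK against PBS was 0.48. The part of scaling in the Fosl1 change was not tested, so the call does not show induction.

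Epha2 encodes a receptor tyrosine kinase for ephrin-A ligands whose transcription is induced by ERK signalling, and which in turn can restrain it. It had log2 levels of 3.36, 3.1 and 3.32 on the LPS/NNK arrays, 2.75, 3.49 and 4.21 on the LPS arrays, 4.48, 4.93 and 5.67 on the NNK arrays, and 3.34, 2.93 and 3.11 on the PBS arrays. The NNK arrays lay above the other 9, and the LPS/NNK arrays lay among PBS. Epha2 rose 3.73-fold in NNK against PBS (log2 1.9 ± 0.36, adjusted p = 0.00116). It was 3.41-fold lower in LPS/NNK than in NNK (-1.77 ± 0.36, adjusted p = 0.00624) and 2.92-fold lower in LPS than in NNK (-1.55 ± 0.36, adjusted p = 0.022). In LPS/NNK against PBS it gave 0.13 ± 0.36 (adjusted p = 0.775), with a 95% confidence interval of -0.65 to 0.91. LPS gave 0.35 against PBS, and LPS/NNK gave -0.22 against LPS.

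The rise of Epha2 in NNK and its lower level in LPS/NNK were each kept under 24 of 25 alternatives, normexp background correction being the exception, at 1.26 (adjusted p = 0.062) and -1.33 (adjusted p = 0.288). Without PBS 1 and PBS 2 the rise was 1.92 (adjusted p = 0.0345). LPS against NNK was less firm, at -1.18 without LPS 1 (adjusted p = 0.095), -1.55 without LPS 5 (adjusted p = 0.0636), -1.59 without NNK 3 (adjusted p = 0.0682) and -1.22 without NNK 5 (adjusted p = 0.101). On the slides that carried both groups, Epha2 in LPS/NNK minus NNK was -1.57 on one and -2.58 on the other. Etv5 gave -0.72 and -1.62 on those slides. NNK minus PBS, on the single slide with both, gave 1.37 for Epha2, 1.28 for Dusp4, 1.37 for Spry4, 2.74 for Spred2 and 1.68 for Etv4. The single slide with LPS/NNK and PBS gave 1.56 for Dusp4, -1.60 for Etv5 and -0.74 for Spred1. Each LPS array was alone on its slide, so no within-slide value exists for LPS. PBS arrays lay at slide position 1, LPS and NNK arrays at position 2 and LPS/NNK arrays at position 4, so position and group cannot be told apart except between LPS and NNK.

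**Figure D3:**
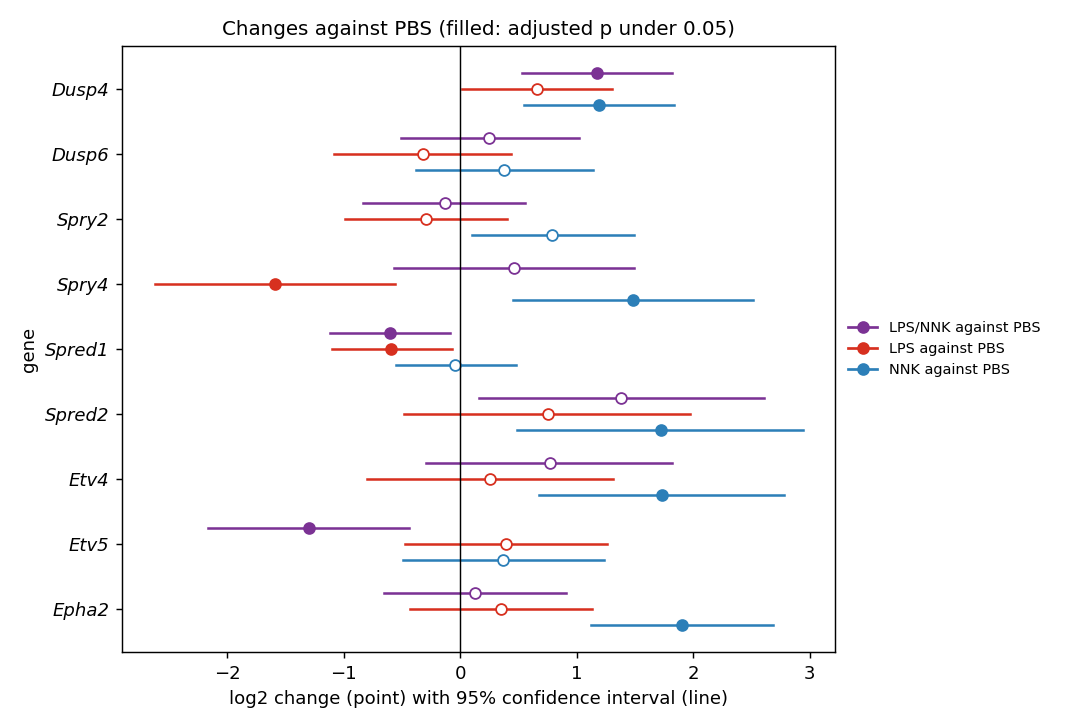
Points are log2 changes against PBS of the 9 tested genes with 95% confidence intervals (3 arrays a group), filled where the limma adjusted p was under 0.05. The 5 genes filled for NNK lie between 1.19 for Dusp4 and 1.9 for Epha2, and Spry4 is filled on both sides of 0, at -1.59 in LPS and 1.48 in NNK.

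In NNK against PBS, 5 of 9 tested genes rose and 0 fell (Dusp4, Spry4, Spred2, Etv4 and Epha2), and their median change over the 9 was 1.19, against 0.01 over everything tested. Of all items tested 51.9% were called in either direction, so the count called in either direction was near the background. The share called higher was 27.2% and the share called lower 24.6%, and all 5 calls were higher. The count was 2 without PBS 3 and 3 without NNK 5. Spred2 entered the test only through its LPS/NNK and NNK arrays. No overlap between NNK and PBS arrays was seen for 5 of the 9 genes and for 67.5% of all items.

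In LPS against PBS, 0 of 9 rose and 2 fell (Spry4 and Spred1), with a median change of 0.26, against -0.10 over all items. Here 56.1% of all items were called, 25.1% higher and 31% lower. Only Spred1 showed no overlap between LPS and PBS arrays, as did 62.7% of all items. The count was 0 without PBS 1, and 0 without PBS 1 and PBS 2. Spry4 alone was called when PBS 3, LPS 5, NNK 2, NNK 3, LPS/NNK 3 or LPS/NNK 6 was left out. Without LPS 1 both falls were lost and the 1 call was Spred2, which was higher. Without PBS 2 the calls were Dusp4, which was higher, and Spry4, which was lower.

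In LPS/NNK against PBS, 1 of 9 rose (Dusp4) and 2 fell (Etv5 and Spred1), with a median change of 0.25, against -0.08 over all items. Of all items 55.4% were called, 27% higher and 28.4% lower. The count was 1 without LPS/NNK 6. Without PBS 2 alone, and also without PBS 1 and PBS 2, 3 rose (Dusp4, Spred2 and Etv4) and 0 fell. Dusp4, Spred1 and Spred2, 3 of the 9, showed no overlap, as did 62.3% of all items. The 3 comparisons with PBS share the same PBS arrays, and their values for one gene are therefore not independent.

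**Figure D4:**
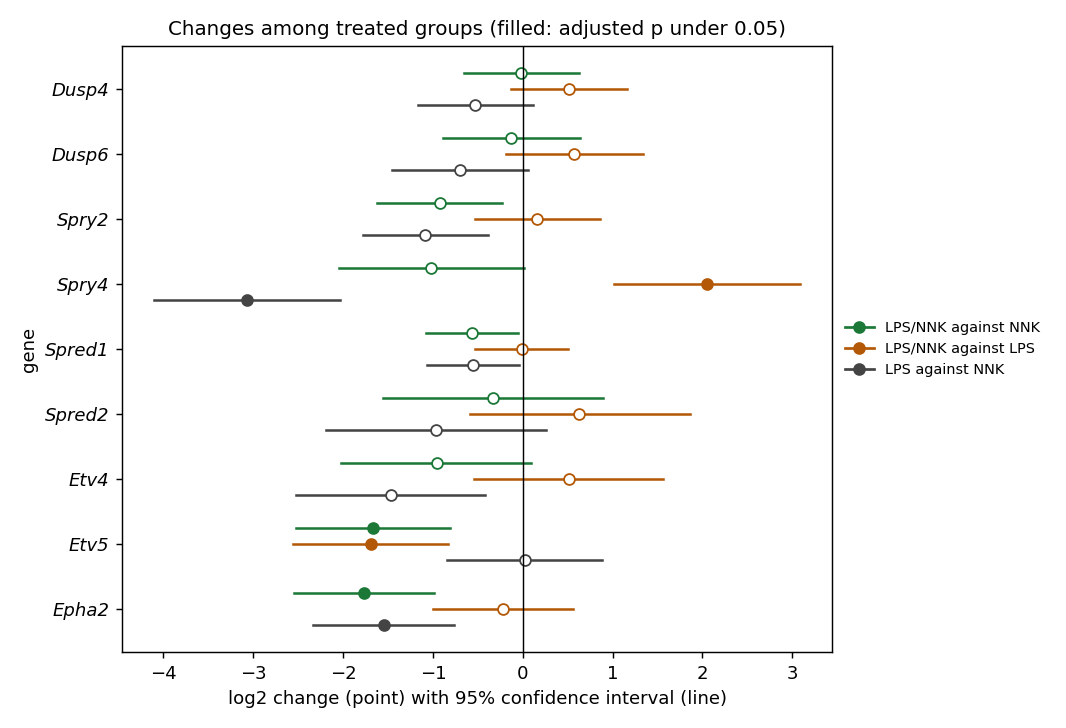
Points are log2 changes between treated groups of the 9 tested genes with 95% confidence intervals (3 arrays a group), filled where the limma adjusted p was under 0.05. Epha2 lies at -1.77 and Etv5 at -1.67 in LPS/NNK against NNK, and Spry4 lies at -3.07 in LPS against NNK.

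Where LPS was added to NNK, in LPS/NNK against NNK, 0 of 9 rose and 2 fell (Epha2 and Etv5), and the 9 changes ran from -1.77 to -0.02 with a median of -0.92, against -0.08 over all items. Of all items 17.6% were called, 7.77% higher and 9.8% lower. Epha2, Etv5 and Spred1, 3 of the 9, showed no overlap, as did 36.3% of all items. The count was 1 when NNK 2, NNK 3, LPS/NNK 3 or LPS/NNK 6 was left out, and in each of these Epha2 remained called and Etv5 did not. With slide as a fixed effect 4 fell, Spry4 at -1.47 (adjusted p = 0.0218) and Etv4 at -1.39 (adjusted p = 0.0358) being added.

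Where NNK was added to LPS, in LPS/NNK against LPS, 1 of 9 rose (Spry4) and 1 fell (Etv5), with a median change of 0.51, against 0.10 over all items. Only 4.16% of all items were called, 2.87% higher and 1.29% lower. No overlap was seen for 4 of the 9, Dusp4, Spry4, Etv4 and Etv5, and for 21% of all items. The count was 0 when LPS 1, LPS 5, NNK 3, LPS/NNK 3 or LPS/NNK 6 was left out, and 1 without LPS 6 or NNK 2.

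In LPS against NNK, 0 of 9 rose and 2 fell (Spry4 and Epha2), with a median change of -0.97, against -0.15 over all items. Of all items 6.38% were called, 2.73% higher and 3.65% lower. The count was 1, Spry4, when LPS 1, LPS 5, NNK 3 or NNK 5 was left out. The groups did not overlap for 6 of 9 genes, Spry4, Epha2, Etv4, Spry2, Dusp4 and Spred1 being lower on every LPS array, against 24.8% of all items.

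The interaction asked whether the effect of NNK differed when LPS was also given. It was negative and passed the test for Epha2 (-2.12 ± 0.51, adjusted p = 0.00749) and Etv5 (-2.06 ± 0.57, adjusted p = 0.0134) and for 0 of the other 7 tested genes, with a median of -0.68 against 0.03 over all items. Of all items 39% were called, 20.8% higher and 18.2% lower. The fits without PBS 1 and PBS 2 gave -2.14 for Epha2 (adjusted p = 0.0576) and -1.94 for Etv5 (adjusted p = 0.0838). With normexp background correction they were -1.53 (adjusted p = 0.243) and -1.26 (adjusted p = 0.161). Dusp4 gave -0.68 ± 0.42 (adjusted p = 0.214) and Spry4 0.57 ± 0.68 (adjusted p = 0.515).

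Genes upstream and beside these 10 were read from 5 lists, whose counts stand beside shares over all items of 51.9% called (27.2% higher) in NNK against PBS and 17.6% called (9.8% lower) in LPS/NNK against NNK. Of 28 tested receptor ligands and receptor tyrosine kinases, 0 rose and 7 fell in LPS/NNK against NNK, including Fgf10, a ligand of lung epithelial growth (-1.36, adjusted p = 0.00672), and the receptor Fgfr4 (-1.36, adjusted p = 0.0109). Areg, the EGF receptor ligand amphiregulin, was higher in LPS/NNK than in LPS (2.32, adjusted p = 0.0196) and lower in LPS than in NNK (-2.26, adjusted p = 0.0106), as Spry4 was in both comparisons. In NNK against PBS 6 of these 28 rose and 5 fell, with Erbb2 at 1.41 (adjusted p = 0.000482) and the ligand Fgf7 at -1.95 (adjusted p = 0.00224).

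Of 24 tested genes of the RAS, RAF, MEK and ERK cascade, 8 rose and 3 fell in NNK against PBS, where 51.9% of all items were called, among them the ERK-activated kinase gene Rps6ka1 (1.59, adjusted p = 0.000323) and Map2k2, which encodes MEK2 (1.32, adjusted p = 0.000671). Rasa1, a RAS GTPase-activating protein, fell (-1.32, adjusted p = 0.00175). In LPS/NNK against NNK 2 rose, Rasgrp1 (0.91, adjusted p = 0.0366) and Rps6ka1 (0.77, adjusted p = 0.0407). The 3 that fell were the adaptor gene Gab1 (-1.0, adjusted p = 0.0317), Mapk3, which encodes ERK1 (-0.86, adjusted p = 0.0324), and Rras (-0.65, adjusted p = 0.0471). The limma test called 0 of the 24 in LPS/NNK against LPS, with 4 at an unadjusted p under 0.05. Of all 21857 items 4.16% were called in that comparison, and 5580 had an unadjusted p under 0.05.

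Of 15 tested feedback genes of the same families outside the 10, 7 rose and 0 fell in NNK against PBS (51.9% of all items called), and 1 rose and 5 fell in LPS/NNK against NNK (17.6% called). The phosphatase genes Dusp1 (-1.81, adjusted p = 0.0148) and Dusp8 (-1.88, adjusted p = 0.0194) were lower in LPS/NNK than in NNK. Dusp2, a phosphatase gene abundant in lymphocytes and macrophages, was higher (1.91, adjusted p = 0.00216). Of 21 tested immediate-early and AP-1 genes, 14 rose and 0 fell in NNK against PBS, with Egr1 at 2.55 (adjusted p = 0.000201) and Jund at 2.39 (adjusted p = 0.000187). In LPS/NNK against NNK, Fosb (-1.38, adjusted p = 0.0143), Fos (-1.25, adjusted p = 0.0201) and Egr1 (-1.15, adjusted p = 0.0349) fell and Junb rose (0.89, adjusted p = 0.0379). Egr1 was also higher in LPS/NNK than in LPS (1.44, adjusted p = 0.0365) and lower in LPS than in NNK (-2.59, adjusted p = 0.000769), as was Fos (-1.65, adjusted p = 0.00891). Of 15 tested Eph receptors and ephrins other than Epha2, 7 rose and 0 fell in NNK against PBS, and Epha1 (-0.95, adjusted p = 0.0163) and the ligand Efna1 (-0.91, adjusted p = 0.0475) were lower in LPS/NNK than in NNK.

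Marker sums of several lung and immune cells differed between groups, and they did not share 1 pattern. Each sum is the log2 of the summed linear signals of a list, so the most abundant genes weigh most in it. The counts below for LPS/NNK against NNK stand beside 17.6% of all items called there, 7.77% higher and 9.8% lower. In bulk lung RNA, fewer cells of a type and less RNA per cell cannot be told apart. Of 7 tested macrophage markers 6 rose in LPS/NNK against NNK. Their sum, in which C1qc was most abundant, was 7.12 to 7.45 in LPS/NNK, 6.70 to 6.94 in LPS, 4.76 to 4.99 in NNK and 3.57 to 4.73 in PBS. Of 6 tested T cell markers 4 rose in LPS/NNK against NNK, with sums of 3.44 to 4.06 in LPS/NNK and 1.62 to 1.72 in NNK. The 10 alveolar type 2 markers, with Etv5 left out, summed to 10.28 to 11.28 in LPS/NNK, 10.20 to 10.54 in LPS, 10.43 to 10.98 in NNK and 9.25 to 9.80 in PBS, and 0 of 10 rose and 1 fell in LPS/NNK against NNK. Sftpc, the surfactant protein C gene, had the highest mean signal of these on the arrays. Heart and skeletal muscle markers summed to 5.55 to 6.80 in LPS/NNK and 6.19 to 7.56 in NNK, and 3 of 7 fell. Club and airway markers summed to 7.46 to 8.25 in LPS/NNK, 8.93 to 9.08 in LPS, 8.54 to 8.87 in NNK and 8.43 to 8.54 in PBS. In LPS/NNK against NNK 0 of 5 rose and 1 fell. The median change of the 5 was 0.22 there, while the sum, in which Scgb1a1 was most abundant, was lower. Of 8 fibroblast and smooth muscle markers 3 rose in LPS/NNK against NNK, with sums of 8.23 to 9.12 in LPS/NNK and 7.91 to 8.28 in NNK. The part of any of these cell types in the changes of the 10 genes was not tested.

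Across the 12 arrays the gene most like Epha2 among named genes was Spry1, another Sprouty inhibitor that was not among the 10. Pearson's r of log2 levels was 0.986, and after removing group means it was 0.967, second to Lrba at 0.968. Spry1 had log2 levels of 3.22, 2.94 and 2.96 on the LPS/NNK arrays, 2.79, 3.23 and 3.69 on the LPS arrays, 3.64, 3.90 and 4.27 on the NNK arrays, and 3.04, 2.88 and 3.07 on the PBS arrays. As for Epha2, NNK arrays were high, although LPS 6 lay above NNK 2. Spry1 rose in NNK against PBS (0.94 ± 0.26, adjusted p = 0.00984) and was lower in LPS/NNK than in NNK (-0.90 ± 0.26, adjusted p = 0.0329). These correlations describe 12 arrays that share groups and scaling, and carry no test.

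**Figure D5:**
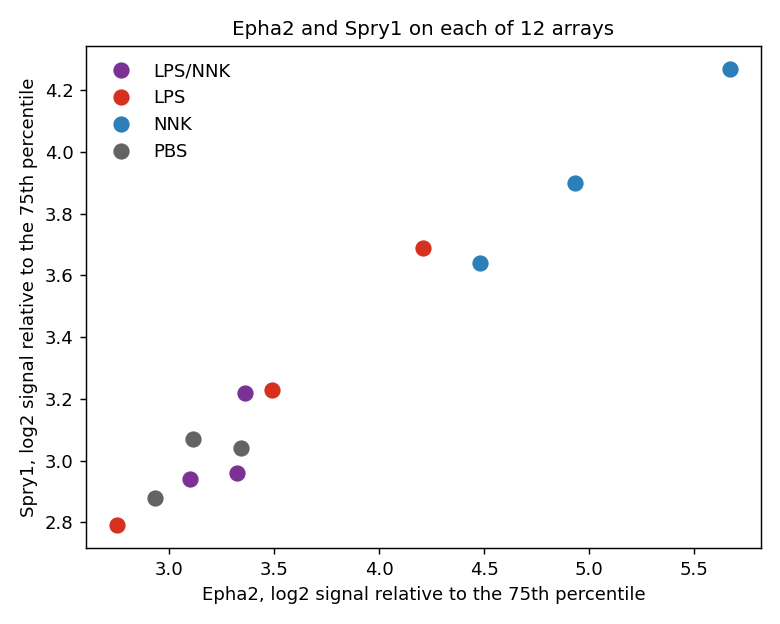
Each point is 1 lung array, with Epha2 on the horizontal and Spry1 on the vertical axis, both as log2 signal relative to the array's 75th percentile. The arrays follow 1 line (r = 0.986 over 12 arrays), with NNK arrays at the upper right and LPS arrays spread along it.

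The 9 tested genes did not vary as 1 block within groups. After removing group means, Spry4 and Spred1 had r = 0.91, Spred1 and Epha2 0.91, Spry4 and Epha2 0.83, Spred1 and Spred2 0.81, and Spry4 and Etv4 0.77. Etv5 ran against Dusp6, at -0.66, and against Epha2, at -0.33. By level, the named gene most like each of the others was Barhl1 for Dusp4 (0.93), Maob for Dusp6 (0.935), Slc15a1 for Spry2 (0.917), Gfod1 for Spry4 (0.943), Gad1 for Spred1 (0.956), Notch1 for Spred2 (0.91), Mycn for Etv4 (0.888) and Add1 for Etv5 (0.973). By deviation from group means, Spred1 was most like the phosphatase gene Dusp8, at 0.962.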

How the data were processed

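Lung RNA of 12 samples was measured on Agilent single-colour arrays, 3 in each of 4 groups. Per the file headers, signal intensity was extracted by Agilent Feature Extraction 10.7.3.1, and the submitters' processing notes also name Partek. The deposited table holds log2 values and was not used for tests. On every array it differed by a constant, to within 8.87e-05, from values computed here with all spots of a probe averaged. The values tested left outlier spots out and were not compared with it. Whether the samples are separate mice rather than repeated extracts is not stated, so p-values measure the spread between these samples.

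Non-outlier spots of a probe were averaged, log2 was taken, and the 75th percentile over non-control spots of the array was subtracted. Probes had to be well above background on all 3 arrays of some group; 28334 of 41137 probes passed, and the probe of each gene with the highest mean gave 21857 items, of which 13649 had a gene name. Probe names came from the RefSeq transcript, matched for 59.2% of 41174 probes. limma 3.58.1 in R 4.3.3 (lmFit and eBayes, one mean per group over all 12 arrays, two-sided) gave moderated tests with Benjamini-Hochberg adjustment over all items, called under 0.05. An exact permutation test of 3 against 3 arrays could not go below p = 0.1 and was not used. The number of arrays limits the precision.

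Alternatives changed the background correction, scaling, filter, probe rule, array weights, slide, replicate block and single arrays. The normexp setting used median signals, because the mean-signal column named in the plan was not in the scanner files, and was chosen after seeing the data. Leaving out PBS 1 and PBS 2 together leaves 1 PBS array, assumed to vary like the other groups. The genes and gene lists were chosen with earlier results of these data known. The rule for named genes covered all 10 genes; genes named from the other lists were drawn from the 2 called in each direction with the smallest p, or from all called where 5 or fewer were. Spry1 is described further because it was the gene most like Epha2. The scripts were tested on simulated data.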

Additional observations from a re-analysis of the deposited data

Results flagged for a closer look

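The effect of NNK differed with LPS for Epha2, the ephrin-A receptor gene, and for the ETS factor gene Etv5, by the limma test of the interaction itself. For Epha2 the interaction was -2.12 (adjusted p = 0.00749): NNK changed its log2 level by -0.22 where LPS was also given and by 1.9 where it was not. For Etv5 it was -2.06 (adjusted p = 0.0134) on the tested probe, with -1.69 where LPS was also given and 0.37 where it was not. On the second Etv5 probe these changes were -0.89 and 1.12, so the 2 probes differed on which change was larger. Of all items, 39% had a called interaction. Without PBS 1 and PBS 2, which leaves 1 PBS array, the interactions were -2.14 for Epha2 and -1.94 for Etv5. Neither call held with normexp background correction, at -1.53 for Epha2 (limma adjusted p = 0.243) and -1.26 for Etv5 (adjusted p = 0.161). The interaction also draws on the PBS arrays, which were set apart by properties of the whole array. Groups of 3 arrays were not searched for single outlying arrays.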

How the results depend on the processing

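The counts of the 10 genes called moved both ways with the settings. With normexp the count was 0 for LPS against PBS, 0 for LPS/NNK against NNK, 0 for LPS/NNK against LPS, 0 for the interaction and 1 for LPS against NNK. In that fit 0 of 21857 items were called for LPS/NNK against LPS, against 910 here. Normexp called 18.4% of all items for LPS against PBS, 1.5% for LPS/NNK against NNK, 0.16% for the interaction and 0.975% for LPS against NNK. The median of all items against PBS shifted to 0.52 in LPS/NNK, 0.31 in LPS and 0.56 in NNK. Epha2 then had an interaction of -1.53 (adjusted p = 0.243) and Etv5 one of -1.26 (adjusted p = 0.161). Spred1 turned positive against PBS with normexp, at 0.65 in LPS/NNK, 0.29 in LPS and 1.09 in NNK, and at 0.03 in LPS with cyclic loess. Median scaling shifted all items to 0.26 in LPS/NNK, 0.34 in LPS and 0.24 in NNK against PBS, and higher and lower calls over all items became 7787 and 4261 in LPS/NNK (5893 and 6211 in the reported fit), 8175 and 4330 in LPS (5485 and 6774), 7401 and 3916 in NNK (5949 and 5386), and 3057 and 5823 for the interaction (4539 and 3982). Normexp gave 4388 and 1281 in LPS/NNK, 2478 and 1554 in LPS and 6372 and 1392 in NNK against PBS. With no filter the count was 1 for LPS against PBS and 0 for LPS/NNK against LPS. With probes required on all 12 arrays, which tested 6 of the genes, it was 1 for LPS against PBS, 3 for NNK against PBS, 1 for LPS/NNK against LPS and 1 for LPS against NNK. The mean of all probes gave 1 for LPS/NNK against PBS and 1 for LPS/NNK against LPS. Array weights gave 6 for LPS/NNK against NNK, 6 for LPS against NNK, 4 for the interaction, 7 for NNK against PBS, 4 for LPS/NNK against PBS and 3 for LPS/NNK against LPS. In the same order, array weights called 62.3%, 31.9%, 63.3%, 74.6%, 68.8% and 41.3% of all items. Fitting only the groups compared gave 1 for LPS against PBS and 0 for LPS/NNK against LPS. Slide as a fixed effect gave 4 for LPS/NNK against NNK, where it called 12.3% of all items. Without PBS 1 and PBS 2 the count was 0 for LPS against PBS, 1 for LPS/NNK against LPS and 0 for the interaction. Leaving out each array in turn gave 1 to 3 for LPS against NNK, 0 to 2 for LPS against PBS, 0 to 2 for LPS/NNK against LPS, 1 to 3 for LPS/NNK against NNK, 1 to 4 for LPS/NNK against PBS, 2 to 6 for NNK against PBS and 2 to 3 for the interaction. The cause of these changes was not tested. Replicate numbers showed no clear pairing of the arrays. After removing group means, 3 of 9 same-numbered pairs and 18 of 45 other pairs correlated above 0.1, with medians of 0.02 and -0.028. The highest value of same-numbered pairs was 0.408, against 0.339 for the others, so pairing is not excluded. A replicate block gave Spred2 1.34 in NNK against PBS (adjusted p = 0.0747) and Etv5 0.99 in LPS against PBS (adjusted p = 0.031), with counts of 3 for LPS against PBS and 4 for NNK against PBS. Signal near background limits what can be said of Fosl1, Etv4 and Spry4 on LPS arrays.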
